A study of Mus musculus with 16 samples.

Results

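The genes described here are 31 genes of mitochondrial and peroxisomal fatty acid oxidation, taken as a named list from the 12266 genes tested in the hippocampus of 3xTg-AD mice. Each gene was represented by the probe set with the highest mean over all 16 arrays among those that carry its symbol alone, and all 31 passed the filter on low values. The 3xTg-AD mouse is a model of Alzheimer's disease in which mutant human APP and tau are driven by the Thy1 promoter in animals with a mutant presenilin 1 knock-in. Every animal was a 14-month-old female of this model, and no mouse without the transgenes was analysed here. The control group was 8 animals on a control diet. The PIO group was 8 animals given pioglitazone, a thiazolidinedione, at 84 ppm in the diet, or about 18 mg per kg of body weight per day, for about 14 weeks from 10 months of age. Each array held total hippocampal RNA of 1 separately numbered animal, so the animal was the replicate.

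Long-chain fatty acids enter mitochondria as carnitine esters and are then shortened in repeated cycles of dehydrogenation, hydration, dehydrogenation and thiolysis, with electrons passed to the respiratory chain through electron transfer flavoprotein. Peroxisomes shorten very long-chain and branched acids by a parallel set of enzymes. In brain this oxidation is mainly an astrocyte activity, and in liver many of its genes are targets of the PPAR nuclear receptors, the family to which the receptor of pioglitazone belongs. The question put to the data was whether these genes differed between diets, and how far they varied between animals of 1 diet.

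PPAR receptors bind as heterodimers to repeats of the half-site AGGTCA, so the 250 bases upstream of each annotated start were searched for it. The windows came from RefSeq (GRCm38.p6) and were found for 27 of the 31 genes. None was found for Crat, Acaa2, Decr1 or Hsd17b4. On either strand, AGGTCA stood in the windows of 5 genes, which is 18.5% of 27, against 14% of all 32851 windows. The 5 are shown because they include the carnitine palmitoyltransferase Cpt1a and the medium-chain dehydrogenase Acadm, textbook PPAR targets. Each sequence is written 5′ to 3′ on the strand of its gene, and capitals mark the half-site, which reads TGACCT where it lies on the other strand. The windows are chr19:3323051-3323300 on the plus strand for Cpt1a, chr7:44974852-44975101 on the minus strand for Cpt1c, chr11:70015429-70015678 on the minus strand for Acadvl, chr3:153944644-153944893 on the minus strand for Acadm and chr7:140116422-140116671 on the minus strand for Echs1.
Cpt1a: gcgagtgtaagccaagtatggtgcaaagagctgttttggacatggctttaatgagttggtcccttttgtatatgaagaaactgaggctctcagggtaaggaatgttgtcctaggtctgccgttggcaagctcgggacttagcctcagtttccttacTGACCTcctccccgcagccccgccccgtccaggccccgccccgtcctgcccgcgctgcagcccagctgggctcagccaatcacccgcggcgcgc
Cpt1c: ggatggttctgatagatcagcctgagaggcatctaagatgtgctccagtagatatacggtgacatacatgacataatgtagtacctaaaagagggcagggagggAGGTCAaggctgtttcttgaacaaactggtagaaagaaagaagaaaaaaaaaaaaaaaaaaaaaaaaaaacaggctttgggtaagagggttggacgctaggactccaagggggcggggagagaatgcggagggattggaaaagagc
Acadvl: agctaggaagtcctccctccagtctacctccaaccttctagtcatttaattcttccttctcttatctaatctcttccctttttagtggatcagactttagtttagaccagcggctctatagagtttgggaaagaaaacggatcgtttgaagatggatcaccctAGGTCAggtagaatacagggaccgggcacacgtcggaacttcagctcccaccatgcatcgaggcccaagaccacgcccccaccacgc
Acadm: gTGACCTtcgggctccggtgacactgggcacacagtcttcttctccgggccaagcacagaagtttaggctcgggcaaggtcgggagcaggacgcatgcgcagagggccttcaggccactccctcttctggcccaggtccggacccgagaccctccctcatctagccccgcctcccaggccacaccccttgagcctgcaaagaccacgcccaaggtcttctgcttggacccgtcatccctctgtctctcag
Echs1: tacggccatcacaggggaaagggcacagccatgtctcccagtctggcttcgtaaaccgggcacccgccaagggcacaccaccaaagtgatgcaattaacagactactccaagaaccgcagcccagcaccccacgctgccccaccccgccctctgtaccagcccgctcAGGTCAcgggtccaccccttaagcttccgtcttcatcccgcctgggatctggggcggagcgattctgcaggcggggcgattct
The half-site began 94 bases before the start of Cpt1a, 146 before Cpt1c, 87 before Acadvl, 249 before Acadm and 83 before Echs1. A direct repeat of the half-site with 1 base between its copies was in 0 of the 27 windows and in 0.0335% of all windows. The GC box GGGCGG was upstream of 20 genes (74.1%), against 32.7% of all windows, and CCAAT of 13 (48.1%), against 33.8%. The list was counted by gene and the background by window, over all annotated windows whether or not the gene was measured here. The shares are therefore not a like comparison, and whether they are particular to fatty acid oxidation genes was not tested. Both strands were searched for each motif, and the direct repeat contains the half-site. A match describes letters in these windows and not a bound site.

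Hadha and Hadhb encode the subunits of the mitochondrial trifunctional protein and are transcribed away from each other from starts 272 bases apart. The Hadhb window, which lies between the 2 starts, is shown because the levels of the pair are compared below. It is chr5:30155003-30155252 on the plus strand, with 2 GC boxes in capitals. Of its 250 bases, 228 are also in the Hadha window. The GC box nearer the Hadhb start runs past the edge of that overlap.
Hadhb: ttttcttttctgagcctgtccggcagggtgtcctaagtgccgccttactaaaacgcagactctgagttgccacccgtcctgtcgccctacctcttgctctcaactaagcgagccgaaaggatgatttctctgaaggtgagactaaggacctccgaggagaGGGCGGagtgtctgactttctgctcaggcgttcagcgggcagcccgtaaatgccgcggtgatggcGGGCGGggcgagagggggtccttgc

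The values were log2 numbers from 0.33 to 16.6, with array medians of 5.65 to 5.76. All pairs of arrays correlated at 0.994 or more over probe sets. Array numbers in the descriptions fell into a range of 1 to 6, with 4 control and 2 PIO animals, and a range of 10 to 24, with 4 control and 6 PIO animals. What the number stands for is not stated. Of 12 hippocampal neuron markers, 11 passed the filter, and their summed log2 value was 112 to 116 in control animals and 107 to 116 with PIO. It was lowest in PIO 14 and PIO 15, where the mean of the 9 measured striatum markers was highest, at 0.92 and 1.05 log2 units above its mean over all arrays. Choroid plexus markers split the arrays most. The mean of the 10 measured of 12 (Prlr and Enpp2 were not) lay between -3.56 and -2.33 log2 units from its overall mean in 6 animals (control 1, 4, 5 and 7 and PIO 9 and 13), and between 0.55 and 2.66 in the other 10. That left 4 of 8 control and 6 of 8 PIO animals above 0. In bulk tissue, fewer cells of a type and less RNA per cell cannot be told apart.

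No fatty acid oxidation gene passed the test for a change with PIO. By limma with Benjamini-Hochberg adjustment over 12266 genes, 0 of 31 had an adjusted p under 0.05, as did 0% of all genes, and the smallest adjusted p was 0.762 among the 31 and 0.457 among all genes. At an unadjusted p under 0.05 there were also 0 of 31, against 7.00% of all genes (3.86% higher and 3.15% lower with PIO). The smallest unadjusted limma p among the 31 was 0.107, for Decr1. The control and PIO animals overlapped for all 31 genes, while 0.0326% of all genes did not overlap. Mean values were higher with PIO for 14 genes and lower for 17, and 47.3% of all genes were lower. The median difference was -0.0067 log2 units over the 31 and 0.0045 over all genes. Marker list means also differed between diets, but no list was tested as a whole. Means were higher with PIO for 0 of 12 myelin markers (6 at an unadjusted limma p under 0.05), 1 of 12 microglia (3), 2 of 12 astrocyte (3), 2 of 7 endothelial (1) and 2 of 11 hippocampal neuron markers (0). They were higher for 9 of 9 striatum (3) and 9 of 9 thalamus markers (0). Single animals were far out on some lists. The myelin list mean was -0.31 in PIO 14 and -0.55 in PIO 15, and -0.10 to 0.11 in the other PIO animals. Striatum markers were highest in the same animals. The thalamus mean was 0.92 in PIO 16 and at most 0.21 elsewhere. The part of these marker shifts in the differences of the 31 genes was examined only by fits with 1 list as a covariate. With the choroid plexus, striatum, myelin or astrocyte list, 0 of 31 passed the adjusted threshold.

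The differences were small against the spread between animals. For 24 genes the difference was smaller than its SE, for 7 it was between 1 and 2 SE, and for all 31 it was smaller than the SD between animals of 1 diet. The median size of a difference was 0.034 log2 units, against 0.050 over all genes. The 95% confidence intervals of all 31 lay within 0.5 log2 units of 0, and those of 23 lay within 0.25. These counts against SE, SD and interval width were not made over all genes, so they do not set the 31 apart. The median SE was 0.070 over the 31 and 0.064 over all genes. The intervals reached from a 0.762-fold level with PIO at their lowest, for Acox3, to 1.24-fold at their highest, for Cpt1a. These 2 bounds belong to genes with wide intervals and are not a limit for the whole list. For each gene, changes inside its own interval were not resolved with 8 animals per diet.

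**Figure D1:**
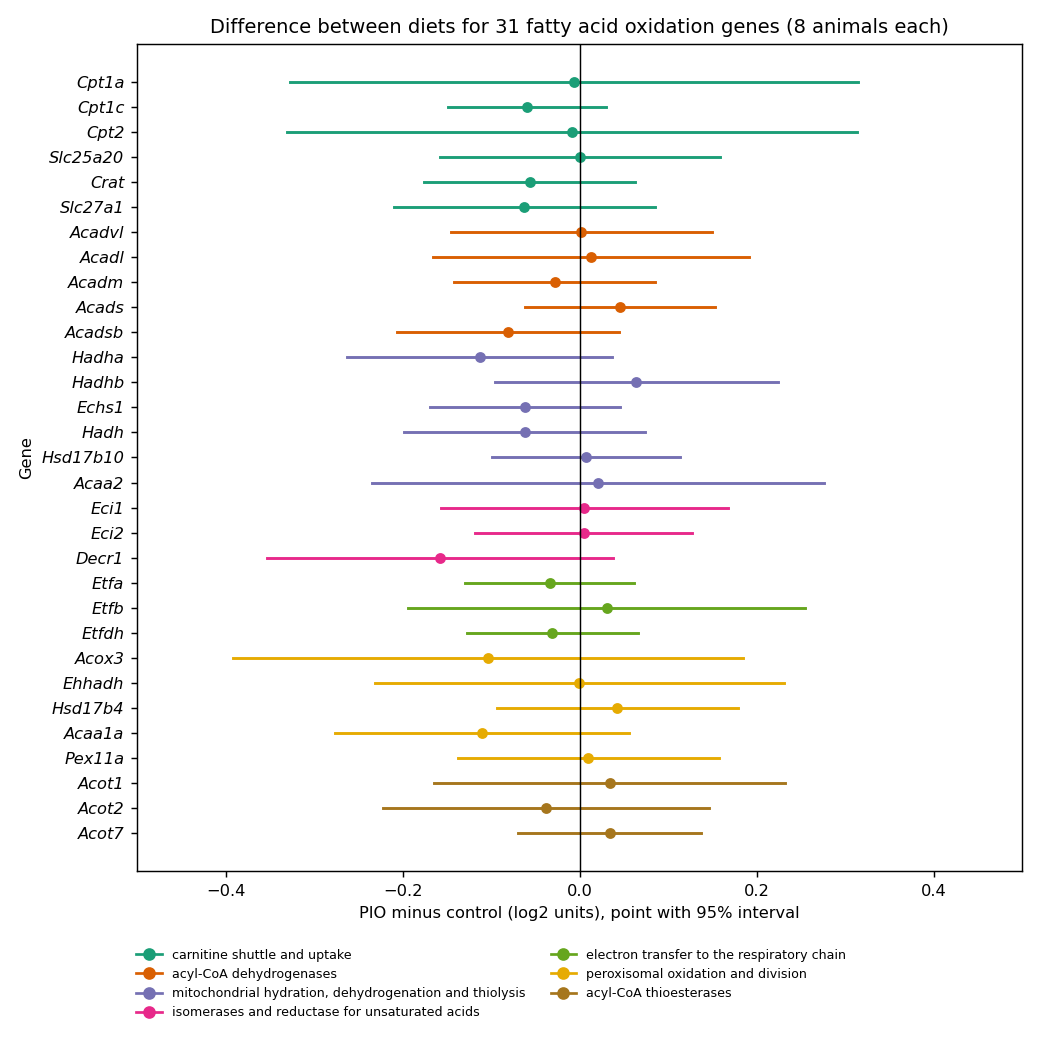
PIO minus control in log2 units (horizontal axis) for each of the 31 genes (vertical axis), with points for the difference, bars for its 95% interval from limma and colours for the role of the gene. Every bar crosses 0, and the longest bars belong to Cpt1a, Cpt2 and Acox3.

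The carnitine shuttle carries long-chain acids into the mitochondrion. Cpt1a, the liver-type carnitine palmitoyltransferase and rate-limiting step of the pathway, ran from 8.06 through a median of 8.37 to 9.00 log2 units in control animals and from 8.09 through 8.57 to 8.76 with PIO. The highest animal, control 8, and the lowest, control 5, were on the same diet. The difference was -0.0067 (SE 0.15, n = 8 per diet). Cpt1c, the brain form, which lies in the endoplasmic reticulum and has little transferase activity, ran from 11.91 through 12.03 to 12.17 in control animals and from 11.93 through 11.97 to 12.08 with PIO, a difference of -0.059 (SE 0.042). The PIO animals lay inside the control range. Cpt2, which returns the acyl group to CoA at the inner membrane, ran from 7.08 through 7.59 to 7.87 in control animals and from 6.88 through 7.47 to 7.92 with PIO, a difference of -0.0086 (SE 0.15). The widest span was in the PIO group, between PIO 9 and PIO 11. The carrier Slc25a20 (0.00019, SE 0.075), the carnitine acetyltransferase Crat (-0.056, SE 0.056) and the fatty acid uptake protein Slc27a1 (-0.063, SE 0.070) each differed by no more than about their SE. In this group of 6 genes, 1 was higher and 5 lower, and 0 passed the test.

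The acyl-CoA dehydrogenases take the first step of each cycle, each for its own chain length. Acadm, for medium chains, ran from 10.31 through 10.45 to 10.66 in control animals and from 10.33 through 10.41 to 10.57 with PIO, a difference of -0.028 (SE 0.054). The groups covered nearly the same range. The very long-chain enzyme Acadvl differed by 0.0015 (SE 0.070), the long-chain enzyme Acadl by 0.013 (SE 0.084) and the short-chain enzyme Acads by 0.046 (SE 0.051). Acadsb, for short branched chains, differed by -0.081 (SE 0.059). So 3 of 5 were higher, 2 lower, and 0 passed the test.

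The later steps of the cycle gave the same picture. Hadha differed by -0.11 (SE 0.071) and its partner subunit Hadhb by 0.064 (SE 0.076). The enoyl-CoA hydratase Echs1 differed by -0.062 (SE 0.051), the hydroxyacyl-CoA dehydrogenase Hadh by -0.062 (SE 0.064), the related dehydrogenase Hsd17b10 by 0.0073 (SE 0.050) and the thiolase Acaa2 by 0.021 (SE 0.12). Of these 6 genes, 3 were higher and 3 lower, and 0 passed the test. Unsaturated acids need the isomerases Eci1 (0.0053, SE 0.076) and Eci2 (0.0043, SE 0.058) and the dienoyl-CoA reductase Decr1. The Decr1 difference, -0.16 (SE 0.092), was the largest of the 31. It was -0.48 in arrays 1 to 6, which hold 2 PIO animals and control 3, the highest animal, and 0.045 in arrays 10 to 24. With the range of array numbers as a block it was -0.14, and without control 3 it was -0.091. Whether the Decr1 difference depends on the range was not tested.

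Electrons leave the cycle through electron transfer flavoprotein, built of Etfa and Etfb, and its dehydrogenase Etfdh. Etfa ran from 10.90 through 11.02 to 11.21 in control animals and from 10.88 through 11.00 to 11.11 with PIO, a difference of -0.034 (SE 0.045). Etfdh ran from 9.89 through 10.05 to 10.18 in control animals and from 9.96 through 10.00 to 10.06 with PIO, a difference of -0.031 (SE 0.046). For Etfdh the PIO animals lay within the control range and spread over less of the scale, with an SD of 0.034 against 0.117. Etfb differed by 0.031 (SE 0.11).

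Of the peroxisomal genes, Acox3, an oxidase of branched acids, was among the dimmer ones, with 4.50 through 4.60 to 5.23 in control animals and 3.95 through 4.57 to 5.08 with PIO. Its difference was -0.10 (SE 0.14), and its highest animal, control 6, stood apart from the other controls. Ehhadh, the peroxisomal bifunctional enzyme and a classical PPAR target in liver, ran from 3.93 through 4.35 to 4.60 in control animals and from 3.95 through 4.34 to 4.63 with PIO, a difference of -0.00076 (SE 0.11). Both groups covered the same range. The second bifunctional enzyme Hsd17b4 differed by 0.042 (SE 0.064), the thiolase Acaa1a by -0.11 (SE 0.078) and Pex11a, which acts in peroxisome division, by 0.0096 (SE 0.070). Here 2 were higher, 3 lower, and 0 passed the test.

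The acyl-CoA thioesterases split acyl-CoA into free acid and CoA. Cytosolic Acot1 ran from 8.55 through 8.76 to 9.01 in control animals and from 8.47 through 8.80 to 9.28 with PIO, a difference of 0.034 (SE 0.094). Mitochondrial Acot2 ran from 8.44 through 8.59 to 8.70 in control animals and from 8.24 through 8.51 to 8.88 with PIO, a difference of -0.039 (SE 0.087). In both genes the PIO animals reached further up and further down than the controls, with PIO 14 lowest in each. Acot7, the brain acyl-CoA hydrolase, differed by 0.034 (SE 0.049). Acot1 and Acot2 are near-identical paralogs, so their probe sets may read each other's transcripts.

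The choice of probe set did not bring a call. The 31 genes had 48 probe sets past the filter, and 0 of them had an unadjusted p under 0.05 for diet in limma, against 7.23% of all 22811 probe sets. In 13 genes more than 1 set was measured, and in 5 of these the sets differed in sign. A second Hadhb set differed by -0.11 (SE 0.064), against 0.064 for the set used, and a second Pex11a set by 0.17 (SE 0.088), against 0.0096. A second Hsd17b4 set differed by -0.074 (SE 0.055), against 0.042. The sets used for Hadhb and Hsd17b4, like some others used, are of a shared-sequence type that can match more than 1 transcript. A second Decr1 set gave -0.16 (SE 0.12), close to the first. These genes were singled out after their values were seen.

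Other genes of fatty acid handling were read from a second list of 65, of which 50 were measured. By the same limma fit with Benjamini-Hochberg adjustment, 0 of 50 had an adjusted p under 0.05, with 20 higher, 30 lower and a median difference of -0.029 log2 units. At an unadjusted p under 0.05 there was 1 of 50, against 7.00% of all genes, and 47.3% of all genes were lower. The 1 gene was the fatty acid transporter and very long-chain acyl-CoA synthetase Slc27a2. It ran from 6.53 through 7.23 to 7.39 in control animals and from 6.96 through 7.51 to 7.62 with PIO, a difference of 0.34 (SE 0.15, limma with Benjamini-Hochberg adjusted p = 0.681). The groups overlapped. The muscle transferase Cpt1b had no probe set with that symbol alone and was not analysed here.

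**Figure D2:**
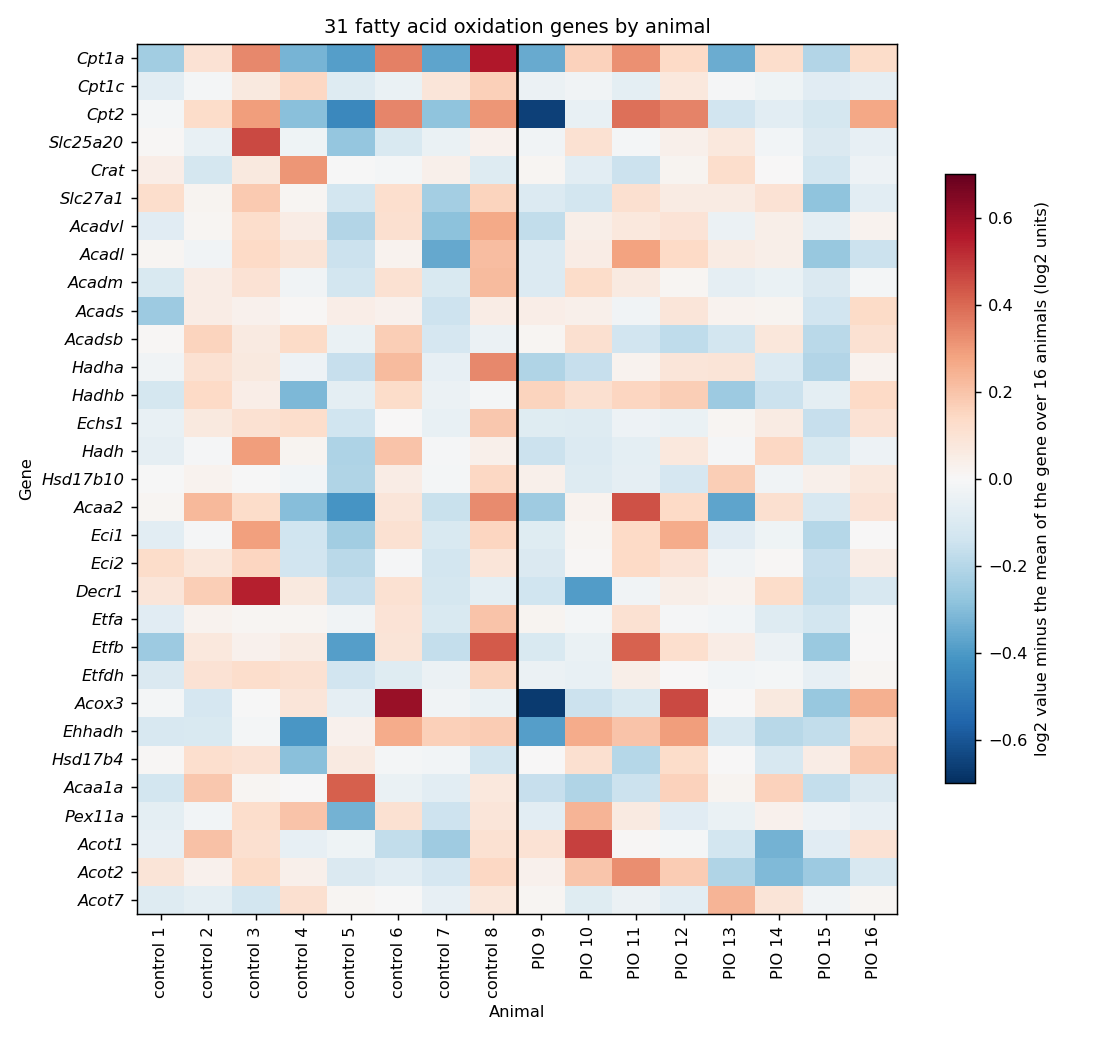
Each cell is the log2 value of a gene (vertical axis) in an animal (horizontal axis) minus the mean of that gene over the 16 animals, red for higher and blue for lower, with the line between the 8 control and the 8 PIO animals. Columns such as control 3 and control 8 are mostly red and columns such as control 7 and PIO 15 mostly blue, on both sides of the line.

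The median SD between animals exceeded the median size of a diet difference, over the 31 and over all genes alike. An SD of single animals and a difference of group means are unlike measures, so this is no comparison of variances. The SD between animals of 1 diet had a median of 0.143 log2 units over the 31 genes and 0.130 over all genes, and 20 of the 31 were above the latter. It was largest for Cpt2 (0.326), Cpt1a (0.325) and Acox3 (0.291) and smallest for Cpt1c (0.0775), Etfa (0.085) and Etfdh (0.086). In 23 of 31 genes the SD was larger in control animals than with PIO, against 41.0% of all genes, with a median SD of 0.153 in control animals and 0.128 with PIO. Animals also stood apart across the list. The mean deviation of the 31 genes was highest in control 8 (0.139, with 25 genes above their own mean) and control 3 (0.129, with 27). It was lowest in PIO 15 (-0.135, with 2 of 31 above) and control 5 (-0.134, with 5). The extremes lay on both diets, and the diet means of this deviation were 0.011 for control and -0.011 for PIO.

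**Figure D3:**
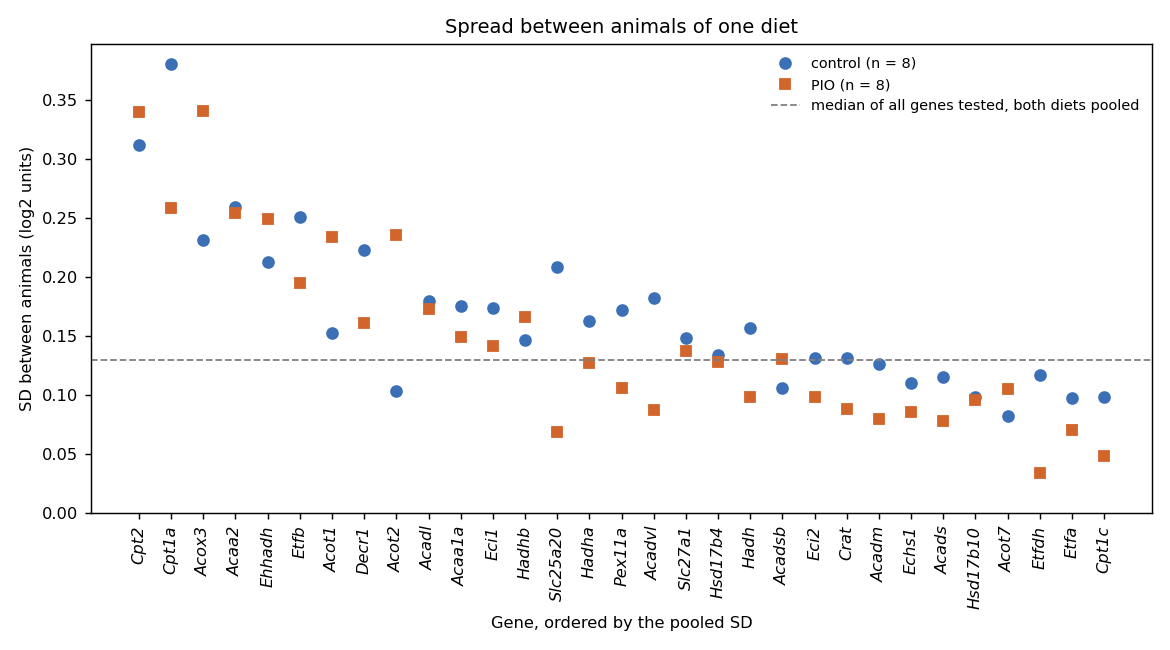
SD between animals of 1 diet in log2 units (vertical axis) for each gene (horizontal axis, ordered by pooled SD), with circles for control, squares for PIO and a dashed line at 0.130, the median of all genes tested. Cpt2, Cpt1a and Acox3 stand at the left with pooled SDs of 0.326, 0.325 and 0.291, and the circle lies above the square for 23 of the 31 genes.

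Part of this spread followed the choroid plexus markers. In a limma fit of each gene on the mean of the marker list with diet in the model, added after the data were seen, Cpt1a, Cpt2 and Acaa2 rose with the list. These were 3 of 31 genes with a Benjamini-Hochberg adjusted p under 0.05, against 2.27% of all genes (2.19% rising). Cpt1a rose by 0.12 log2 units per log2 unit of the list (SE 0.014, limma adjusted p = 6.88e-05), Cpt2 by 0.11 (SE 0.021, limma adjusted p = 0.00736) and Acaa2 by 0.089 (SE 0.014, limma adjusted p = 0.00161). Cpt1a lay at 8.06 to 8.20 in the 6 animals with low choroid plexus markers and at 8.24 to 9.00 in the other 10. The gap lay between control 1 and PIO 15. Cpt1a was looked at in this way after its slope was seen, and the share of all genes that separate these animals was not counted. The slope was positive for 29 of 31 genes, against 43.2% of all genes.

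Within either set of animals the slopes did not pass the adjusted threshold. Among the 10 animals above the overall mean, the slope was 0.13 for Cpt1a (SE 0.075, limma adjusted p = 0.582), 0.15 for Cpt2 (SE 0.079, limma adjusted p = 0.552) and 0.16 for Acaa2 (SE 0.061, limma adjusted p = 0.471). Among the 6 below it, the slope was -0.019 for Cpt1a (SE 0.10), -0.46 for Cpt2 (SE 0.14, limma adjusted p = 0.761) and 0.0028 for Acaa2 (SE 0.17). All 3 measured Acaa2 sets rose with the list (0.089, 0.11 and 0.14). For Cpt1a the 2 other sets had slopes of 0.053 (limma adjusted p = 0.266) and 0.025 (limma adjusted p = 0.758). Their means were 8.28 and 5.47 log2 units, against 8.44 for the Cpt1a set used. The other Cpt2 set had a slope of 0.00018 and a mean of 3.70, close to the filter at 3.58. These other Cpt1a and Cpt2 sets are of the shared-sequence type. The part of choroid plexus tissue in these values was not tested. The choroid plexus list itself was higher with PIO for 10 of its 10 measured markers, with 0 at an unadjusted p under 0.05. With the list in the diet model, Cpt1a differed by -0.16 (SE 0.069, limma adjusted p = 0.727) and Hadha by -0.15 (SE 0.064, limma adjusted p = 0.707). These were 2 of 31 at an unadjusted p under 0.05, against 6.58% of all genes.

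On the astrocyte list, with 12 of 12 markers measured, Eci2, Acot2 and Eci1 passed the same test. Eci2 rose by 0.93 log2 units per unit of the list (SE 0.18, limma adjusted p = 0.0245), Acot2 by 1.38 (SE 0.27, limma adjusted p = 0.0245) and Eci1 by 1.13 (SE 0.26, limma adjusted p = 0.0328). These were 3 of 31, against 3.13% of all genes (1.45% rising), and the slope was positive for 28 of 31, against 46.2%. The slopes of Cpt1a (1.82, SE 0.62, limma adjusted p = 0.121), Cpt2 (1.79, SE 0.63, limma adjusted p = 0.129) and Acaa2 (1.53, SE 0.48, limma adjusted p = 0.0936) were steeper with larger SEs. Whether the genes differ in which list they follow was not tested. The list spanned only -0.24 to 0.16 log2 units. Without PIO 11 the count was 0 of 31 and 0.383% of all genes, and without PIO 15 it was 0 of 31 and 0% of all genes. With the list in the diet model, 0 of 31 genes had an unadjusted p under 0.05, against 7.24% of all genes. On the hippocampal neuron list 1 of 31 genes passed, against 10.1% of all genes. This was Acot2, which rose by 0.66 (SE 0.11, limma adjusted p = 0.00120), and its paralog Acot1 had a slope of 0.54 (SE 0.17, limma adjusted p = 0.0506). On the oligodendrocyte, microglia, endothelial, striatum and thalamus lists 0 of 31 passed (5.15%, 0.114%, 0.497%, 3.53% and 0.0163% of all genes did). A positive slope was also common on most of these lists. It was found for 28 of 31 genes on the myelin list (43.4% of all genes), 26 on microglia (59.4%), 24 on hippocampal neurons (45.4%), 23 on thalamus (48.2%) and 19 on endothelial markers (59.7%). On the striatum list it was 4 of 31 (55.3% of all genes). Astrocyte, neuron and choroid plexus lists share the same 16 animals, and their parts in these slopes were not tested.

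**Figure D4:**
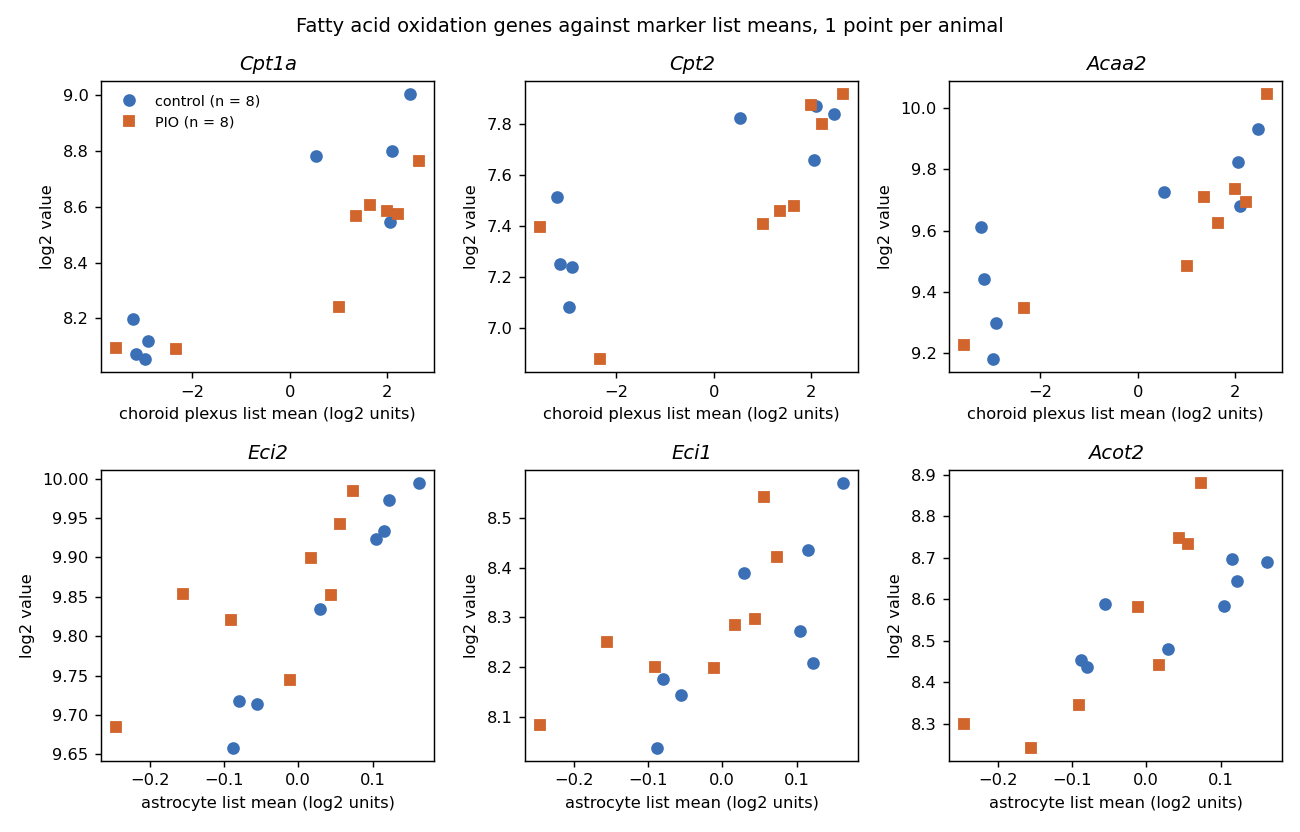
log2 value of 6 genes (vertical axes) against the mean of a marker list, in log2 units from its overall mean (horizontal axes), with 1 point per animal, circles for control and squares for PIO. In the upper row the 6 animals below 0 on the choroid plexus list have Cpt1a at 8.06 to 8.20, and in the lower row Eci2, Eci1 and Acot2 are higher where the astrocyte list is higher.

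The ranges of array numbers were compared as well. With diet in the model, 0 of 31 genes passed the Benjamini-Hochberg threshold in limma, against 0.00815% of all genes. At an unadjusted p under 0.05 there was 1, against 10.2% of all genes. This was Acot1, with a difference of -0.23 for arrays 10 to 24 minus arrays 1 to 6 (SE 0.084, limma adjusted p = 0.377).

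Subunits and paralogs were compared across the 16 animals as 3 pairs, with permutation p-values adjusted over the 3. These p-values set r against 0 and do not remove diet, array range or the shift that animals shared across the list. Other pairs of genes were not compared, so a high r need not be particular to a pair. Etfa and Etfb, which form 1 heterodimer, varied together (Pearson r = 0.816, permutation p = 1.10e-04, adjusted p = 3.30e-04; Spearman rho = 0.788, permutation p = 3.80e-04, adjusted p = 0.00114). Without the 2 animals farthest from the median of Etfa, control 8 and PIO 15, r was 0.692, and it was 0.821 in arrays 10 to 24 and 0.843 in arrays 1 to 6. Within diets r was 0.867 in control animals and 0.826 with PIO. Acot1 and Acot2 also varied together (r = 0.609, permutation p = 0.0113, adjusted p = 0.0170; rho = 0.676, permutation p = 0.00512, adjusted p = 0.00768). Without PIO 10 and PIO 14 their r was 0.437, and it was 0.601 and 0.631 in the array ranges. By diet it was 0.693 in control animals and 0.618 with PIO. Hadha and Hadhb, whose upstream windows overlap, gave r = 0.123 (permutation p = 0.648, adjusted p = 0.648). Their rho was 0.15 (permutation p = 0.577, adjusted p = 0.577). Their r was 0.0684 without control 6 and control 8, 0.290 in arrays 10 to 24 and -0.162 in arrays 1 to 6. Within diets it was 0.497 in control animals and -0.071 with PIO. The Hadhb probe set used here is the one whose diet difference had the opposite sign to its second set and to Hadha. It is of the shared-sequence type, and the correlation of Hadha with the second Hadhb set was not computed. The low r may therefore belong to the probe set and not to the pair, which was not tested.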

How the data were processed

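Hippocampal RNA of 16 animals, 8 per diet, was measured on Affymetrix arrays. The deposited values were log2 numbers per probe set, with the scale read from the values. The submitters' processing notes list MAS5, GCRMA and R 2.7.1 but give them no role, so the method behind the values is unknown here. GCRMA-type background correction can widen differences of dim genes. Of 45101 probe sets, 64 controls were left out. The others had 1 symbol (34945), several (932) or none (9160), and those with 1 were used. Sets with a mean above the 40th percentile (3.58) were kept, and the highest per gene gave 12266 genes. Diet was tested by limma 3.58.1 (lmFit, eBayes; R 4.3.3), with Benjamini-Hochberg adjustment over all genes. The fit was tested on simulated data.

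Values by animal were given for genes with an unadjusted p under 0.05, the 3 largest and 3 smallest SDs, and Cpt1a, Cpt1c, Acadm, Acox3, Ehhadh, Acot1 and Acot2. Some genes of the lists are not reported here. Other genes given with more than a mean difference were chosen after their values were seen. The genes and lists were chosen with earlier results of these data known. Alternatives covered filters, probe sets, normalization, array ranges and label codes, marker covariates and each animal left out. Slopes on marker lists were added after the data were seen. The number of arrays limits the precision.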

Additional observations from a re-analysis of the deposited data

Results flagged for a closer look

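In 6 of the 62 groups of 8 animals (31 genes on each diet), 1 animal stood apart from the others by a wide gap for the range of its group. Chance gives about 1 in 20 such groups only where values are normal and groups are independent. The 62 groups reuse the same animals, which also stood apart across the list, so the groups were not independent. This count was not made over all genes, so it does not set the 31 genes apart. On the control diet, Slc25a20 was 8.85 in control 3 (next animal 8.42), Crat 9.13 in control 4 (next 8.89) and Acox3 5.23 in control 6 (next 4.71). Hsd17b10 was lowest in control 5, at 9.92 (next 10.11). With PIO, Cpt1c was 12.08 in PIO 12 (next 11.99) and Pex11a 8.42 in PIO 10 (next 8.25). These were 6 different animals and 6 different genes.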

How the results depend on the processing

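In the 35 alternatives, 0 genes of all tested passed the adjusted threshold for diet. The median difference of the 31 ran from -0.062 to 0.044. At an unadjusted limma p under 0.05, the count for diet was 4 in arrays 1 to 6 alone (Slc27a1, Hadha, Decr1 and Acox3, against 5.29% of all genes, with 2 PIO animals), 2 with choroid plexus markers as a covariate (6.58% of all genes) and 1 with myelin markers (Acads, 0.12; 4.5% of all genes), and 0 in the other 32. Over 34 of the alternatives, 144 of 1047 single-gene differences changed sign, and 9 genes never did. The slope on the choroid plexus list called 5 genes after quantile normalization (2.19% of all genes) and 5 with array weights (2.3%). It called 1 in the largest label code group (1.05%). With 1 animal left out, the choroid plexus count was 3 to 6, against 1.74% to 2.52% of all genes. The 6 came without PIO 13 (2.07% of all genes). Cpt1a was called in 32 of 32 alternatives, Acaa2 in 31 and Cpt2 in 29. The slope on the astrocyte list called 0 genes with label code as a block, in the largest code group, with myelin markers and without PIO 14 to 16, where 0.0163%, 0%, 0% and 0% of all genes were called. It called 1 in arrays 10 to 24 (Cpt2; 2.22% of all genes), with choroid plexus markers (1.31%) and with striatum markers (0.0734%). With 1 animal left out it called 0 to 4, with 0 without PIO 11 (0.383%) or PIO 15 (0%) and 1 without PIO 14 (0.179%). Causes were not tested. No paired analysis was possible because the diets share no subject numbers. Acox3, Ehhadh and Acads were below 6 log2 units, nearest the filter.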
